A study of Caenorhabditis elegans with 9 samples.

Results

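The genes described here encode the aspartic proteases (asp), the cathepsin B-like cysteine proteases (cpr), the protozoan-type lysozymes (lys) and the invertebrate-type lysozymes (ilys) of Caenorhabditis elegans. They were chosen by symbol in the deposited abundance table, an asp, cpr, lys or ilys prefix followed by a number, and joined by gene identifier to the deposited counts. This gave 42 of 46778 genes, 19 asp, 7 cpr, 10 lys and 6 ilys. RNA was measured in 3 groups of 3 libraries, sorted oocyte P-bodies, dissected whole oocytes and whole animal extracts. P-bodies are granules of mRNA with decay and repression proteins in the cytoplasm, and the labels name their sorting FAPS. The whole animals were neither dissected nor sorted and held somatic and germline RNA. All 9 libraries came from female animals labelled fog2; car1:GFP, pgl1:RFP, with L4 and oocyte arrest as the stages and day 3 as the time. The strain is thus shared by all groups, and so are the tags on CAR-1, a P-body protein, and PGL-1, a germ granule protein. Feminized fog-2 animals make no sperm of their own, and the promoters of the tagged genes are not given in the sources used here. Nothing in the labels says that libraries of a group came from separate cultures, so p-values measure only the spread between these libraries, which may be technical.

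The worm intestine digests bacteria with lysosomal and secreted proteases and breaks their cell walls with lysozymes. Aspartic proteases of the cathepsin D type and cathepsin B-like cysteine proteases work in acid compartments, and several lysozymes are part of the defence against swallowed pathogens. The same tissue makes the vitellogenins, the yolk proteins that growing oocytes take up. No library was made from intestine alone, so the tissue of these genes is background and was not measured. Markers of the intestine were detected in the whole animals, where 14 of the 15 listed symbols were in the table and none of these was at 0 counts. Coordinates are given on WBcel235 as in the deposited table, and those of runs of neighbours as in the annotation. The genes lie mostly on chromosome V, with 25 members there, 10 on IV, 5 on X and 1 each on I and II. By annotation 41 are protein coding and 1, asp-11, is a pseudogene.

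Libraries held 27946955 to 78685226 counts. Ribosomal RNA genes took 29.8 to 38.0% of the P-body counts, 86.8 to 88.8% of the oocyte counts and 91.4 to 91.7% of the whole-animal counts, which leaves very different numbers of protein-coding counts. Levels below are counts-per-million values (CPM) over all genes, scaled by TMM, which sets the typical gene to no change between groups. The TMM factors were 3.64 to 3.81 for P-bodies, 0.576 to 0.719 for oocytes and 0.399 to 0.425 for whole animals. Over all tested genes the median log2 change of P-bodies against oocytes was -0.06 with TMM and 2.44 with library totals alone. It was 0.00 with TMM and 0.68 with totals when oocytes were set against animals, and -0.18 and 3.00 when P-bodies were. Changes with TMM are therefore relative to the typical gene. Oocyte library 2 stood apart, with 665 counts of the 42 genes among 3566621 protein-coding counts, against 3493 and 5567 in oocyte libraries 1 and 3.

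Together the 42 genes took a small part of the mRNA in oocyte P-bodies and in oocytes and a larger part in whole animals. Of the protein-coding counts they made up 0.0234, 0.0161 and 0.0140% in the 3 P-body libraries, 0.0878, 0.0187 and 0.0704% in the 3 oocyte libraries and 0.623, 0.581 and 0.562% in the 3 whole-animal libraries. The whole-animal libraries lay above all others, and P-bodies and oocytes overlapped through oocyte library 2, whose share had a 95% Wilson interval of 0.0173 to 0.0201%. Such intervals cover counting error only. The means were 0.0178% ± 0.00491 in P-bodies, 0.0590% ± 0.0360 in the oocytes and 0.589% ± 0.0312 in the animals (SD, n = 3 each). Whole animals thus held a share 33.1 times that of P-bodies and 9.99 times that of oocytes, each with p = 0.1 in a two-sided exact permutation test, the smallest that 3 against 3 allows. The difference between P-bodies and oocytes had p = 0.2 in the same exact test. Adjusted over the 24 share comparisons made, these p-values were 0.15, 0.15 and 0.24 (exact permutation, Benjamini-Hochberg).

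The order of P-bodies and oocytes depended on what the counts were set against. Of all counts, ribosomal RNA included, the genes took 0.0117% ± 0.00249 in P-bodies, 0.00616% ± 0.00334 in the oocytes and 0.0440% ± 0.00297 in the animals. P-bodies then stood above oocytes in all 3 libraries (exact permutation test, p = 0.1), and whole animals held 3.77 times the share of P-bodies. In bulk RNA, fewer cells of a type and less RNA per cell cannot be told apart.

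**Figure D1:**
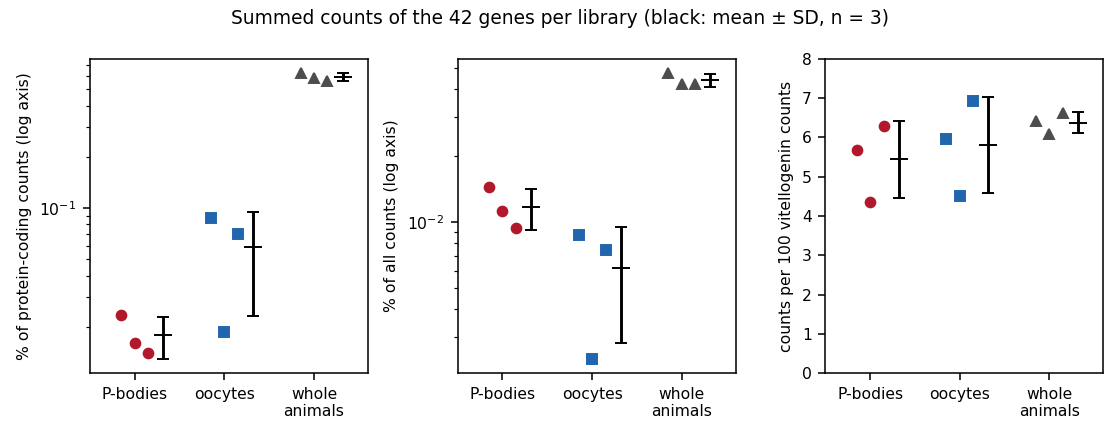
Summed counts of the 42 genes per library, as percent of protein-coding counts (left, log axis), as percent of all counts (middle, log axis) and per 100 vitellogenin counts (right, linear axis from 0). Points are libraries and black bars mean ± SD (n = 3); whole animals lie highest in the left and middle plots, P-bodies lie below oocytes by mean in the left plot and above them in the middle one, and the 3 groups overlap in the right plot.

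Each family followed the sum. The aspartic proteases took 0.0119% ± 0.00307 of protein-coding counts in P-bodies, 0.0372% ± 0.0234 in the oocytes and 0.395% ± 0.0398 in the animals. The cpr proteases took 0.00288% ± 0.00104 in P-bodies, 0.0128% ± 0.00800 in the oocytes and 0.0900% ± 0.00486 in the animals. Among the lysozymes, lys genes took 0.00203% ± 0.000602 in P-bodies, 0.00626% ± 0.00356 in the oocytes and 0.0712% ± 0.00299 in the animals. For ilys genes the shares were 0.000960% ± 0.000264 in P-bodies, 0.00276% ± 0.00113 in the oocytes and 0.0322% ± 0.00398 in the animals. In each family whole animals lay above P-bodies and above oocytes in every library (exact permutation, p = 0.1 each). P-bodies and oocytes had exact permutation p-values of 0.3 for asp, 0.2 for cpr, 0.2 for lys and 0.1 for ilys, the only family of the 4 whose libraries did not overlap between these groups.

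Of the 42 genes 23 had enough counts to be tested, 11 asp, 5 cpr, 5 lys and 2 ilys. All 23 passed the filter level of 10 counts, taken at the depth of the median library, in every whole-animal library, 21 also in every P-body library and 16 in every oocyte library. The 2 members asp-17 and ilys-3 passed through the whole animals alone, so a lower level elsewhere was built into their choice. The members that passed are not all members, and counts of calls below are out of these 23. The other 19 had at most 16 counts in any library, 7 of them none at all (asp-7, asp-9, asp-11, asp-15, asp-19, cpr-2 and ilys-6). In P-bodies no untested member exceeded 4 counts and in oocytes none exceeded 5. The genes ilys-1 and lys-9 had their highest level in P-bodies, from a single count in 1 P-body library each and 0 counts in the other 8 libraries, which is under the 3 counts that a count of 0 allows.

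Per length of transcript, the aspartic proteases asp-3 and asp-1 led the group in whole animals. In the deposited transcripts-per-million values (TPM), asp-3 averaged 150.0 ± 28.5 TPM and asp-1 147 ± 45.3 TPM in whole animals (SD, n = 3), and their libraries overlapped. Below both came ilys-5 at 102 ± 7.24 TPM, which overlapped with asp-6 at 81.9 ± 10.97 TPM. Next was cpr-6 at 67.4 ± 5.32 TPM, apart from its neighbours in the order. The lysozyme lys-7 at 49.5 ± 7.21 TPM overlapped with asp-4 at 45.8 ± 1.54 TPM, and lys-1 followed at 36.1 ± 2.48 TPM. The tested members from rank 9 down ranged from 30.99 ± 3.104 TPM for cpr-1 to 1.07 ± 0.309 TPM for ilys-3. In P-bodies asp-3 at 32.5 ± 8.75 TPM and asp-1 at 32.5 ± 9.98 TPM again stood first. In oocytes asp-3 averaged 19.7 ± 11.2 TPM and asp-1 15.4 ± 8.36 TPM, and oocyte library 2 held the lowest value of both.

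Many members lie side by side in the genome, and such neighbours had very unlike levels. On WBcel235 the annotation places asp-17, asp-16, asp-15 and asp-1 next to each other at V:19035723-19050752, with no other protein-coding gene between them. Of these asp-1 was among the highest of all members and asp-17 averaged 1.23 ± 0.679 TPM in whole animals. Their neighbour asp-15 had no count and asp-16 had 2 counts in 1 whole-animal library. Another run at V:8267511-8275757 holds asp-6, asp-12, asp-5 and the pseudogene asp-11. In whole animals asp-6 stood at 81.9 ± 10.97 TPM, asp-5 at 30.97 ± 4.195 TPM and asp-12 at 2.44 ± 0.463 TPM, and asp-11 had no count. The lysozymes lys-1, lys-2 and lys-3 lie together at V:10277904-10283544, where lys-1 averaged 36.1 ± 2.48 TPM, lys-2 17.8 ± 0.223 TPM and lys-3 had 1 count in all. The run of lys-4, lys-5 and lys-6 at IV:11621429-11627947 and that of ilys-3, ilys-2 and ilys-1 at IV:2464456-2471449 each hold 1 tested gene. Reads that fit more than 1 of these related copies could be split between them, and how the counting treated such reads is not given in the sources used here.

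**Figure D2:**
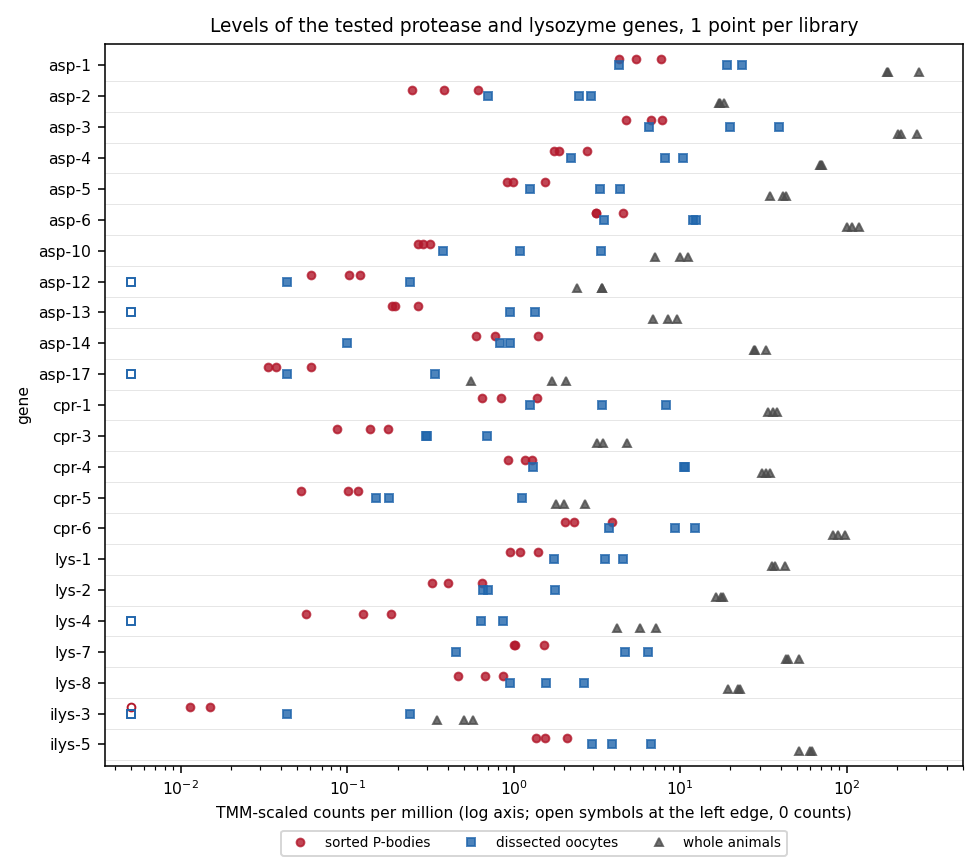
TMM-scaled CPM of the 23 tested genes, 1 point per library, on a log axis, with sorted P-bodies (circles) above dissected oocytes (squares) and whole animals (triangles) in each row. Open symbols at the left edge are libraries with 0 counts; for all 23 genes the whole-animal libraries lie to the right of the P-body and oocyte libraries, and the oocyte points spread more widely than the others. With library totals in place of TMM, all P-body libraries would lie to the right of the oocyte libraries for 11 genes and overlap with them for 12. Shares of all tested genes without overlap are not given here.

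Among the aspartic proteases, asp-1 (WBGene00000214), a protease of the intestine, had 7.69, 5.44 and 4.26 CPM in P-bodies, 23.4, 4.28 and 18.99 CPM in oocytes and 269.5, 174 and 178 CPM in whole animals. Oocyte library 2 fell within the P-body values, and whole animals lay far above both. Its log2 change was -1.44 ± 0.57 (SE) for P-bodies against oocytes (adjusted p = 0.0691), and -5.16 ± 0.64 for P-bodies against whole animals (adjusted p = 0.000332). The call of asp-1 between P-bodies and oocytes changed with the setting. It was called lower without oocyte library 2, with a stricter filter on low counts and with DESeq2 (log2 changes of -1.76, -1.54 and -1.43), and higher on log2(TPM + 1) and log2(TPM + 0.1) (1.17 and 1.24). The levels of asp-3 (WBGene00000216, X:6791064-6792715), needed with asp-4 for the necrotic death of neurons, were 6.65, 7.78 and 4.73 CPM in P-bodies, 39.1, 6.52 and 19.9 CPM in oocytes and 265, 211 and 204 CPM in whole animals. P-bodies and oocytes overlapped here too. For asp-4 (WBGene00000217, X:13218977-13221462) the values were 2.76, 1.86 and 1.74 CPM in P-bodies, 10.4, 2.19 and 8.13 CPM in oocytes and 69.1, 71.3 and 69.8 CPM in whole animals, with oocyte library 2 between the P-body values. It overlaps R12H7.4 on the other strand, and since the strand setting of the counting is not given its counts are uncertain.

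The aspartic protease asp-6 (WBGene00000219) had 4.53, 3.09 and 3.11 CPM in P-bodies, 12.4, 3.48 and 11.9 CPM in oocytes and 119.1, 107 and 100.3 CPM in whole animals. Its neighbour asp-5 (WBGene00000218) had 1.53, 0.915 and 0.993 CPM in P-bodies, 3.28, 1.24 and 4.32 CPM in oocytes and 42.8, 41.5 and 34.7 CPM in whole animals. In both genes oocyte library 2 fell among the P-body values and the other oocyte libraries above them. A clearer gap was seen in asp-2 (WBGene00000215, V:9199680-9204734), with 0.611, 0.244 and 0.381 CPM in P-bodies, 2.895, 0.697 and 2.47 CPM in oocytes and 17.4, 18.3 and 17.1 CPM in whole animals. No P-body library of asp-2 reached the lowest oocyte library, and its log2 change for P-bodies against oocytes was -2.33 ± 0.46 (SE, adjusted p = 0.00219) with TMM and 0.22 (adjusted p = 0.603) with library totals. The innexin gene inx-10 overlaps asp-2 on the other strand, so these counts are uncertain as well.

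The gene asp-10 (WBGene00007605, V:12742041-12744207), which the annotation calls hrg-7, encodes a secreted protein of heme signalling between tissues. It had 0.313, 0.284 and 0.264 CPM in P-bodies, 3.33, 1.09 and 0.375 CPM in oocytes and 11.1, 9.95 and 7.04 CPM in whole animals, and overlaps C15C8.7 on the other strand. Its oocyte libraries differed widely, with library 1 the highest and library 3 just above the P-bodies. The predicted aspartic protease asp-14 (WBGene00019619, X:6444189-6446664) had 1.39, 0.591 and 0.774 CPM in P-bodies, 0.951, 0.0995 and 0.829 CPM in oocytes and 32.8, 28.2 and 27.7 CPM in whole animals. P-bodies and oocytes overlapped, from 373, 177 and 205 counts in P-bodies and 22, 2 and 42 counts in oocytes. The log2 change of asp-14 was 0.44 ± 0.51 (SE) for P-bodies against oocytes (adjusted p = 0.497), not called with TMM, and 2.99 (adjusted p = 1.37e-05) with library totals. Against whole animals asp-14 fell by 5.45 on the log2 scale in oocytes, the largest fall of the 23 members there (SE 0.52, adjusted p = 0.000386). In P-bodies it fell by 5.01 against whole animals (SE 0.45, adjusted p = 1.90e-05). The remaining tested aspartic proteases, asp-12, asp-13 and asp-17, had at most 0.267 CPM in any P-body library, 1.34 CPM in any oocyte library and 9.49 CPM in any whole-animal library.

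Of the cathepsin B-like proteases, cpr-6 (WBGene00000786, X:6607203-6609045) was the highest, with 3.88, 2.297 and 2.02 CPM in P-bodies, 12.3, 3.73 and 9.34 CPM in oocytes and 88.1, 97.3 and 82.2 CPM in whole animals. The gut protease cpr-1 (WBGene00000781, V:11975515-11976756) had 1.39, 0.842 and 0.642 CPM in P-bodies, 8.25, 1.24 and 3.38 CPM in oocytes and 38.3, 36.1 and 33.7 CPM in whole animals. In both, oocyte library 2 fell within the P-body range and whole animals stood clear of it. The levels of cpr-4 (WBGene00000784, V:6614674-6615845), known as a secreted signal after irradiation, were 1.29, 1.17 and 0.925 CPM in P-bodies, 10.5, 1.29 and 10.7 CPM in oocytes and 30.99, 32.7 and 34.4 CPM in whole animals. Oocyte libraries 1 and 3 of cpr-4 lay well above the P-bodies, while library 2 was level with the highest P-body library. Its log2 change was -2.77 ± 0.62 (SE, adjusted p = 0.00818) for P-bodies against oocytes, -0.20 with library totals (adjusted p = 0.7396), and -2.09 ± 0.60 for oocytes against whole animals (SE, adjusted p = 0.0731), which was not called. Without oocyte library 2 that last change was -1.61 and was called.

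Both remaining cpr genes were rare. The level of cpr-3 (WBGene00000783, V:15296853-15298700) was 0.175, 0.137 and 0.0868 CPM in P-bodies, 0.691, 0.299 and 0.296 CPM in oocytes and 4.81, 3.45 and 3.14 CPM in whole animals, without overlap between any 2 groups. For cpr-5 (WBGene00000785, V:1132598-1134036) it was 0.116, 0.1002 and 0.0529 CPM in P-bodies, 1.12, 0.149 and 0.178 CPM in oocytes and 2.67, 1.78 and 2.003 CPM in whole animals, from 31, 30 and 14 counts in P-bodies and 26, 3 and 9 counts in oocytes. Oocyte library 1 held most of the cpr-5 counts of that group, and the fall of cpr-5 in oocytes against whole animals was not called with it (adjusted p = 0.0585) and was called without it, at a log2 change of -3.67.

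The protozoan-type lysozyme lys-7 (WBGene00003096, V:3481421-3482600), a gene of intestinal defence, had 1.51, 1.01 and 0.997 CPM in P-bodies, 4.67, 0.448 and 6.41 CPM in oocytes and 51.8, 44.4 and 43.3 CPM in whole animals. Oocyte library 2, with 9 counts, lay below all P-body libraries and the other oocyte libraries above them. Another defence lysozyme, lys-1 (WBGene00003090), had 1.39, 0.952 and 1.09 CPM in P-bodies, 4.54, 1.74 and 3.53 CPM in oocytes and 35.8, 42.5 and 37.1 CPM in whole animals. Its groups did not overlap, and the log2 change was -1.54 ± 0.27 (SE, adjusted p = 0.000591) for P-bodies against oocytes with TMM but 1.01 (adjusted p = 0.00116) with library totals. The neighbouring lys-2 (WBGene00003091) had 0.641, 0.321 and 0.404 CPM in P-bodies, 1.77, 0.697 and 0.651 CPM in oocytes and 16.5, 18.1 and 17.5 CPM in whole animals, with its highest P-body value just under its lowest oocyte value.

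The lysozyme lys-8 (WBGene00003097, II:5586165-5587651), also linked to defence, had 0.864, 0.674 and 0.465 CPM in P-bodies, 2.64, 0.946 and 1.56 CPM in oocytes and 19.2, 22.9 and 22.2 CPM in whole animals, and its groups did not overlap. It shares its place with C17G10.13 on the other strand, so its counts are uncertain. The level of lys-4 (WBGene00003093) was 0.182, 0.0568 and 0.125 CPM in P-bodies, 0.864, 0 and 0.631 CPM in oocytes and 5.71, 4.17 and 7.11 CPM in whole animals. Its 0 in oocyte library 2 allows up to 0.149 CPM at the depth of that library, within the range of the P-bodies.

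Invertebrate-type lysozymes are a separate protein family with the same activity. The single abundant member, ilys-5 (WBGene00017691, X:6533493-6536840), had 2.08, 1.36 and 1.53 CPM in P-bodies, 6.65, 2.94 and 3.87 CPM in oocytes and 51.9, 61.4 and 59.8 CPM in whole animals, with no overlap between groups. Its log2 change for P-bodies against oocytes was -1.43 ± 0.27 (SE, adjusted p = 0.00124) with TMM and 1.11 (adjusted p = 0.0001901) with library totals. By contrast ilys-3 (WBGene00016670), a lysozyme of pharynx and intestine that acts on swallowed bacteria, had only 4, 0 and 3 counts in P-bodies, 1, 0 and 12 counts in oocytes and 12, 9 and 10 counts in whole animals. Its level was 0.0149, 0 and 0.0113 CPM in P-bodies, 0.0432, 0 and 0.237 CPM in oocytes and 0.571, 0.5003 and 0.345 CPM in whole animals. Oocyte library 3 holds 12 of its 13 oocyte counts, and its P-body against oocyte call was lost without that library, at a log2 change of -1.30.

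P-bodies against oocytes compares the relative levels of these mRNAs in the sorted fraction and in whole oocytes. Debris was not spun off from the sorted P-bodies, unlike the other groups, and its part in these levels was not tested. Most members were lower in P-bodies relative to the typical gene, and the direction turned for most when library totals were used. Of the 23 tested members 19 were called lower with TMM (edgeR, adjusted p under 0.05), where 28.8% of all tested genes were called lower and 26.7% higher, but with library totals 0 were called lower and 9 higher, where 3.35% and 79.6% of all tested genes were called. Not called with TMM were asp-1, asp-12, asp-14 and asp-17. The 9 called higher with library totals were asp-5, asp-6, asp-12, asp-14, cpr-6, lys-1, lys-2, lys-8 and ilys-5. The median log2 change of the members was -1.73 with TMM, 1.66 below the median of all tested genes, and 0.83 with library totals, 1.61 below it. Under both scalings 22 of the 23 lay below the all-gene median, asp-14 being the exception.

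Several of these calls changed when 1 library was left out. The number called lower with TMM was 10 without P-body library 2, 10 without P-body library 3, 11 without oocyte library 1 and 11 without oocyte library 3, against 21 without oocyte library 2. The median log2 change was -1.63, -1.59, -1.27, -1.46 and -2.005 in these 5 fits, against -1.73 with all libraries. Without P-body library 1 the number was 16, and it was 15 without any 1 of the whole-animal libraries. Those enter this comparison through the shared estimate of spread, and also through the filter, TMM and the set of genes adjusted over, which were redone each time. In each of these fits none was called higher. Shares of all tested genes called in fits that left out 1 library are not given here, for this and the comparisons below. A fit with fewer libraries has less power for every gene, so a smaller count of calls is not particular to the members. The calls of asp-2, asp-10, cpr-4, lys-1, lys-8 and ilys-5 held in every fit that left out 1 library. The libraries of both groups did not overlap for 9 members, all lower in P-bodies with TMM (asp-2, asp-10, cpr-3, cpr-4, cpr-5, lys-1, lys-2, lys-8 and ilys-5). With library totals 11 members did not overlap, all higher in P-bodies, and 12 overlapped. With that scaling 79.6% of all tested genes were called higher. The share of all tested genes whose libraries did not overlap is not given here under either scaling. These counts are therefore not read as particular to the members.

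**Figure D3:**
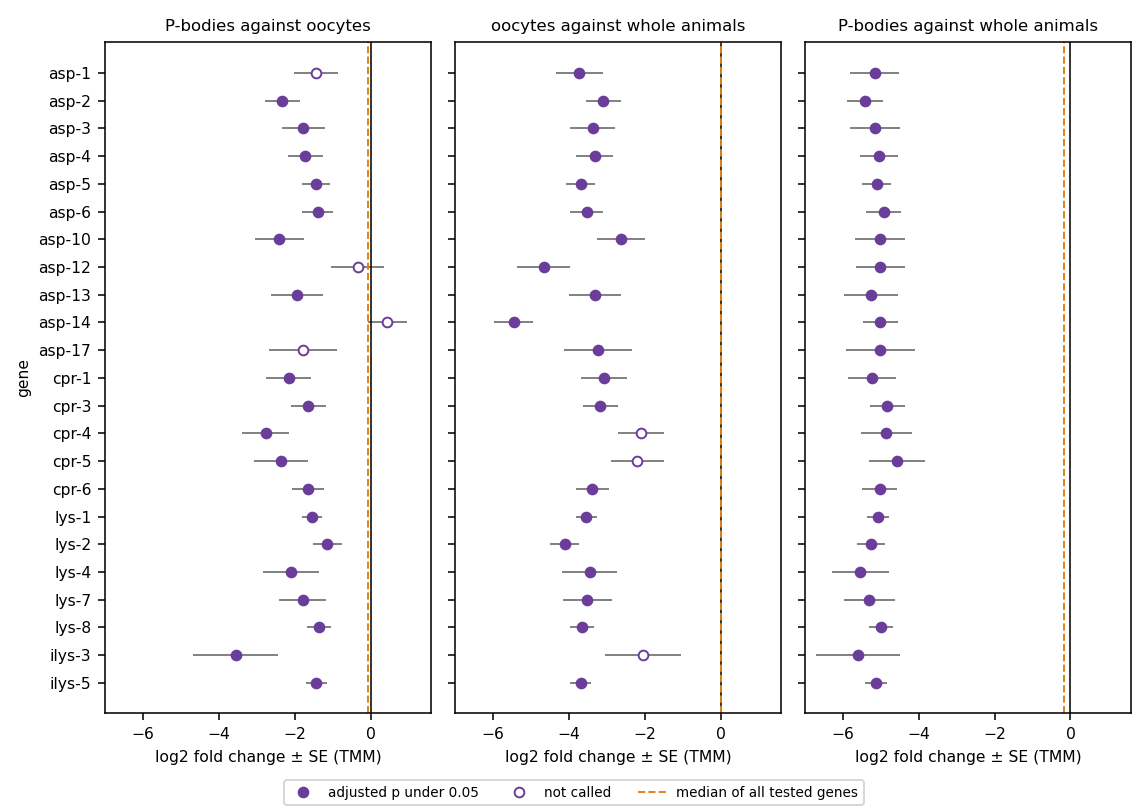
Log2 fold changes of the 23 tested genes with TMM scaling, ± SE, for P-bodies against oocytes (left), oocytes against animals (middle) and P-bodies against animals (right). Filled points have an edgeR adjusted p under 0.05, open points do not, and the dashed line is the median of all tested genes; values on the right gather near -5 while those on the left and in the middle spread, and the falls on the left turn to rises for most genes with library totals.

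Oocytes against whole animals asks how much of these mRNAs the dissected oocytes held beside the animal as a whole. All 23 tested members were lower in every oocyte library than in any whole-animal library with TMM (21 with library totals). The share of all tested genes that were so is not given here. Among the 23, asp-17 and ilys-3 passed the filter through whole animals alone, so their lower level was built into their choice. With TMM 20 of the 23 were called lower, asp-17 among them, where 12.5% of all tested genes were called lower and 0.709% higher. With library totals 21 were called lower and none higher, where 11.8% of all tested genes were called lower and 51.9% higher. The members with no call with TMM were cpr-4, cpr-5 and ilys-3. The median log2 change was -3.38 with TMM, from -5.45 for asp-14 to -2.04 for ilys-3, and -2.76 with library totals. Relative to the all-gene median these were -3.39 and -3.44. Among the highest members, asp-3 changed by -3.37 ± 0.60 (SE, adjusted p = 0.0126) and lys-1 by -3.54 ± 0.27 (SE, adjusted p = 3.23e-05). The number called lower stayed between 17 and 20 when 1 library was left out, and the call of asp-3 was lost without oocyte library 3. That of asp-10 was lost without oocyte library 2, and also without any 1 P-body library or without whole-animal library 1 or 2. That of cpr-1 was lost without oocyte library 3 and without whole-animal library 1 or 2.

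P-bodies against whole animals gave the most even change of the 3 comparisons. All 23 tested members were called lower in P-bodies with TMM, where 38.9% of all tested genes were called lower and 27.9% higher. The 23 include asp-17 and ilys-3, which passed the filter through whole animals alone, so their lower level was built into their choice. With library totals 21 were called lower and none higher, where 9.73% of all tested genes were called lower and 76.6% higher. The log2 changes ran from -5.60 for ilys-3 to -4.57 for cpr-5 with a median of -5.07. Without asp-17 and ilys-3 the lowest was -5.54, for lys-4. Over all 23 members the changes had an SD of 0.229. For oocytes against whole animals that SD over members was 0.757, and for P-bodies against oocytes 0.785. Over all tested genes the SD of the log2 change was 2.32 for P-bodies and 1.51 for oocytes, each against whole animals. The comparisons share the whole-animal libraries, and these SDs are descriptions with no test. The members not called with library totals were asp-17 and cpr-5. In each of the 9 fits that left out 1 library 23 members were called lower with TMM.

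**Figure D4:**
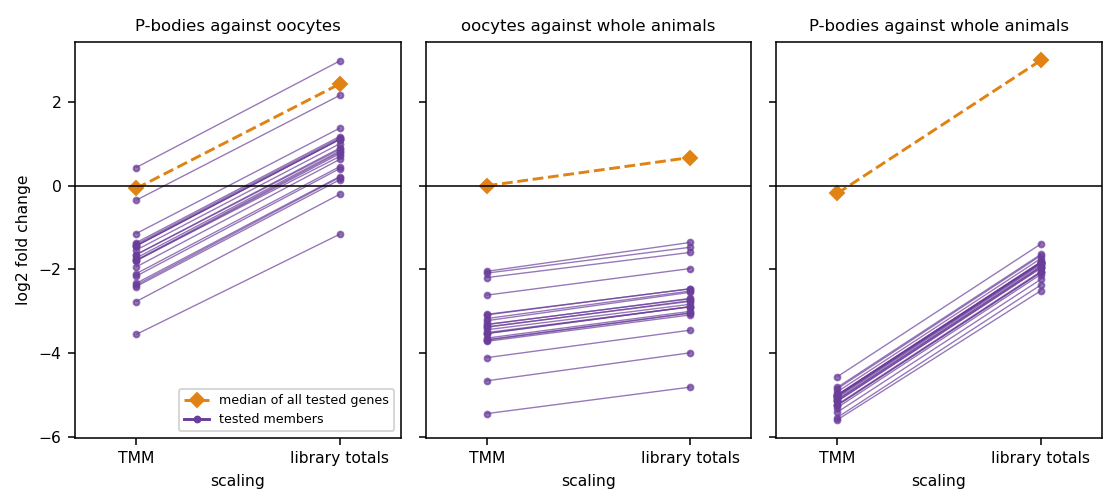
Log2 fold change of each of the 23 tested genes (lines and circles) and the median of all tested genes (dashed line and diamonds) with TMM scaling and with library totals, in the 3 comparisons. Scaling moves members and all genes alike: the members stay 1.66 and 1.61 below the all-gene median for P-bodies against oocytes while their sign turns, and stay negative in the other comparisons.

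The proportions among the members in the P-bodies were close to those of the whole animals. Counted within the 42 genes, 5.53, 7.32 and 5.93% of the counts in the P-body libraries would have to move to another member to give the mean make-up of the whole animals. In oocytes 13.5, 14.8 and 11.7% would have to move. Each whole-animal library differed from the mean of the other whole-animal libraries by 7.78, 5.25 and 3.67%. All P-body libraries lay below whole-animal library 1 and above whole-animal libraries 2 and 3, and all oocyte libraries lay above all of these. The whole-animal values are set against a mean of fewer libraries, so they are not fully alike in measure. These values rest on 3493, 665 and 5567 member counts in oocyte libraries 1, 2 and 3. Across the 23 tested members, log2 mean CPM in P-bodies and in whole animals had a Pearson r of 0.995. The same r was 0.939 for P-bodies and oocytes and 0.942 for oocytes and whole animals. These are across genes measured in the same libraries, and no p is given.

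A few members stood out within these proportions, named here after their values were seen and with no test. The share of asp-14 among member counts was 3.53, 2.003 and 3.099% in P-bodies, 0.6298, 0.301 and 0.754% in the oocytes and 2.76, 2.71 and 2.78% in the animals. It was lower in every oocyte library than in any other library. For asp-2 the share was 1.55, 0.826 and 1.53% in P-bodies, 1.92, 2.105 and 2.25% in the oocytes and 1.47, 1.76 and 1.72% in the animals, highest in the oocytes. That of cpr-4 was 3.27, 3.97 and 3.704% in P-bodies, 6.99, 3.91 and 9.75% in the oocytes and 2.61, 3.14 and 3.45% in the animals. Oocyte libraries of cpr-4 exceeded the whole animals but overlapped with the P-bodies. In P-bodies asp-6 stood just above the whole animals and lys-7 just below them, and asp-12 was lower in oocytes than in whole animals. All other tested members overlapped in share between the groups of each comparison.

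**Figure D5:**
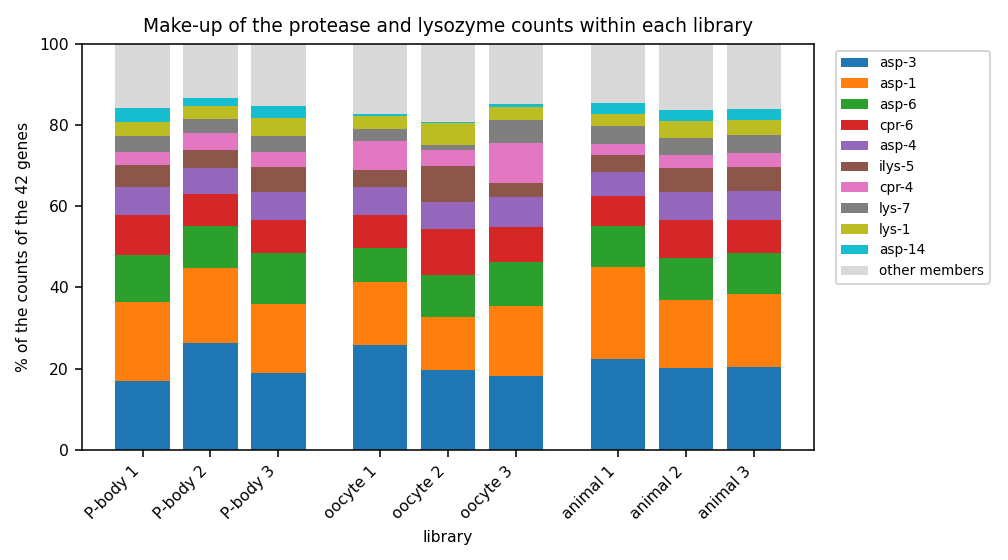
Make-up of the counts of the 42 genes in each library, in percent, with the 9 members of largest mean share and asp-14 in colour and the others in grey. Asp-3 and asp-1 take the largest parts throughout; the oocyte bars show a thinner asp-14 band than the P-body and whole-animal bars, and a thicker cpr-4 band in libraries 1 and 3.

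Vitellogenin mRNA, another product of the intestine, was measured in the same libraries. Set against it, the 42 genes had 5.67, 4.35 and 6.29 counts per 100 vitellogenin counts in P-bodies. The ratio was 5.97, 4.51 and 6.93 in oocytes and 6.42, 6.09 and 6.61 in whole animals. The 3 groups overlapped in this ratio, although the summed share of coding counts differed up to 33.1 times. Exact permutation tests gave p = 0.7 between P-bodies and oocytes, 0.6 between oocytes and animals and 0.2 between P-bodies and animals. All 6 vitellogenin genes were called lower in each comparison with TMM, with medians of -1.39, -3.34 and -4.82, against 1.18, -2.72 and -1.63 with library totals. Their summed level was 397 to 694 CPM in P-bodies, 733 to 2530.0 CPM in oocytes and 15070 to 18490 CPM in whole animals. None of the 6 was at 0 in any group. The part of intestinal RNA in the levels of the proteases and lysozymes in oocytes and P-bodies was not tested.

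Markers of the intestine and of other tissues moved as well. Of 13 tested intestine markers 5 were called lower in P-bodies against oocytes, 9 in oocytes against whole animals and 11 in P-bodies against whole animals, with none higher, at medians of -1.40, -3.28 and -4.73 with TMM and 1.16, -2.63 and -1.56 with library totals. All 5 called against oocytes were positive with library totals. Their summed level was 7.91 to 8.95 CPM in P-bodies, 12.3 to 21.1 CPM in oocytes and 76.0 to 82.3 CPM in whole animals. Most of that sum in P-bodies came from spl-1, a sphingolipid enzyme, at 5.56 ± 0.714 CPM in P-bodies, 8.09 ± 0.941 CPM in oocytes and 9.01 ± 0.851 CPM in whole animals. Closer to the marker medians was vha-6, a proton pump subunit of the intestine, at 0.538 ± 0.0593 CPM in P-bodies, 1.38 ± 0.682 CPM in oocytes and 16.2 ± 1.57 CPM in whole animals (SD, n = 3). The markers nhx-2 and elt-7 differed from it and were called in no comparison. With TMM they changed by 0.90 and 0.97 in P-bodies against oocytes and by -0.26 and -0.84 against whole animals. Against whole animals they changed by 2.91 and 2.31 with library totals. Set against the summed counts of the intestine markers, spl-1 included, the 42 genes did not keep 1 ratio. That ratio leans on spl-1, which made up most of the marker sum in P-bodies. Its log2 change for P-bodies against whole animals was only -0.70 with TMM, where the median of the tested markers was -4.73. A ratio without spl-1 was not computed. With it, the 42 genes had 440, 373 and 289 counts per 100 marker counts in P-bodies. The ratio was 716, 269 and 728 in oocytes and 1530.0, 1266 and 1310.0 in whole animals. Whole animals lay above both other groups, which overlapped, and their mean ratio was 3.72 times that of P-bodies and 2.40 times that of oocytes. Exact permutation tests gave p = 0.4 between P-bodies and oocytes and 0.1 for each comparison with whole animals, the smallest p that 3 against 3 libraries allow in a two-sided test.

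Of 10 muscle markers 9 were called lower in P-bodies against oocytes, 9 in oocytes against whole animals and 10 in P-bodies against whole animals, with TMM medians of -2.69, -2.13 and -4.95 and library-total medians of -0.12, -1.52 and -1.76. Their summed level was 18.2 to 22.2 CPM in P-bodies, 80.4 to 236.5 CPM in oocytes and 514 to 707 CPM in whole animals. They were not uniform: in oocytes against whole animals the TMM changes ran from -7.57 for myo-2 to -0.67 for mup-2, which was not called. Markers of the gonadal sheath and spermatheca, cells that surround the oocytes, summed to 0.555 to 0.751 CPM in P-bodies, 11.6 to 20.5 CPM in oocytes and 11 to 14.7 CPM in whole animals. The marker inx-8 led that sum, at 0.270 ± 0.00797 CPM in P-bodies, 11.8 ± 3.28 CPM in oocytes and 8.47 ± 1.63 CPM in whole animals. Of 5 tested there, 4, 0 and 5 were called lower in the 3 comparisons, with TMM medians of -2.44, -0.31 and -4.39 and library-total medians of 0.14, 0.42 and -1.21. In the oocytes the hypodermis markers col-12, dpy-7 and lon-3 and the neuronal marker rab-3 were at 0 counts, and no other marker was at 0 in a group. Hypodermis markers summed to 3.73 to 4.38 CPM in P-bodies, 2.65 to 12.6 CPM in oocytes and 17.4 to 30.4 CPM in whole animals. Neuron markers summed to 37.7 to 46.5 CPM in P-bodies, 22.5 to 31.4 CPM in oocytes and 35.7 to 40.0 CPM in whole animals. The marker unc-119 led that sum in P-bodies, at 28.3 ± 5.26 CPM, and snb-1 led it in oocytes and whole animals, at 12.8 ± 0.986 CPM and 11.8 ± 0.797 CPM. Of 4 tested hypodermis markers 1 was called higher and 1 lower in P-bodies against oocytes, 0 in oocytes against whole animals, and 1 higher with 3 lower in P-bodies against whole animals, with TMM medians of 0.40, -2.56 and -3.45 and library-total medians of 2.81, -1.87 and -0.27. Of 7 tested neuron markers 1 was called higher in P-bodies against oocytes, 4 lower in oocytes against whole animals, and 1 higher with 4 lower in P-bodies against whole animals, with TMM medians of -0.15, -3.13 and -3.57 and library-total medians of 2.36, -2.48 and -0.39. The part of these cells in the member levels was not tested.

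Oocyte and germline markers took another course. Of 12, all tested, 7 were called higher and 3 lower in P-bodies against oocytes, 0 in oocytes against whole animals, and 8 higher with 3 lower in P-bodies against whole animals. The 3 lower ones were rme-2, the yolk receptor, and cbd-1 and perm-2, of the egg coat, with library-total changes against oocytes of 1.71, 1.89 and -1.98, and against whole animals of 2.64, 2.82 and -1.23. The summed level of the 12, 3684 to 3892 CPM in P-bodies, 2741 to 3037 CPM in oocytes and 2353 to 2645 CPM in whole animals, stood above that of the 42 genes in all groups. The sum of the 42 was 25.0 to 39.4 CPM in P-bodies, 33.1 to 150.9 CPM in oocytes and 996 to 1186 CPM in whole animals.

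Other digestive and lysosomal genes were mostly called lower with TMM as well, and their medians in P-bodies against oocytes turned positive with library totals. Of 8 tested lysosomal proteases outside the asp and cpr families, such as the cathepsin L gene cpl-1, 7 were called lower in P-bodies against oocytes and 8 in each other comparison. Their medians were -1.83, -2.98 and -4.82 with TMM, and 0.71, -2.35 and -1.63 with library totals. In cpl-1 the level was 3.21 ± 1.15 CPM in P-bodies, 12.01 ± 7.27 CPM in oocytes and 85.3 ± 8.88 CPM in whole animals (SD, n = 3). The saposin-like caenopores are pore-forming proteins that act on bacteria. Of 12 tested, 6, 10 and 12 were called lower, with TMM medians of -1.35, -3.60 and -5.12 and library-total medians of 1.19, -2.96 and -1.94. Other lysosomal hydrolases, for lipids and sugars, had 9, 13 and 16 of 16 called lower, with TMM medians of -1.64, -3.19 and -5.14. Their library-total medians were 0.91, -2.54 and -1.96. None of these 3 lists had a gene called higher with TMM in any comparison. Of the genes called lower in P-bodies against whole animals, pcp-5, lipl-7 and gana-1 turned positive with library totals (1.80, 0.61 and 0.45).

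Genes of the lysosomal membrane went both ways. Of 7 tested, cup-5, a lysosomal channel, laat-1, an amino acid transporter, and lmp-1, a membrane glycoprotein, were called higher in P-bodies against oocytes, and ctns-1, a cystine transporter, and ncr-1, a sterol transporter, lower, though with library totals ctns-1 changed by 1.87 and ncr-1 by -0.0319. The level of cup-5 was 50.04 ± 1.94 CPM in P-bodies, 14.9 ± 2.33 CPM in oocytes and 13.9 ± 0.738 CPM in whole animals, a log2 change of 1.75 ± 0.12 for P-bodies against oocytes (SE, adjusted p = 1.13e-07), and 4.27 with library totals. For laat-1 it was 33.1 ± 3.84 CPM in P-bodies, 9.45 ± 2.07 CPM in oocytes and 8.95 ± 0.483 CPM in whole animals. Against whole animals 1 of the 7, ncr-1, was called lower in oocytes. In P-bodies against whole animals the same 3 were called higher and the same 2 lower, with 2.58 for ctns-1 and -1.95 for ncr-1 with library totals.

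The cystatins inhibit cysteine proteases. Of both genes in the list, cpi-1 had 0.272, 0.311 and 0.219 CPM in P-bodies, 2.33, 0.199 and 0.691 CPM in oocytes and 7.24, 10.4 and 10.2 CPM in whole animals. It was called lower in all 3 comparisons with TMM, and its log2 change for P-bodies against oocytes was -1.98 ± 0.60 (SE, adjusted p = 0.0201) with TMM and 0.60 with library totals. The other, cpi-2, had 8.17, 7.38 and 8.37 CPM in P-bodies, 6.18, 5.47 and 8.64 CPM in oocytes and 8.996, 9.84 and 9.36 CPM in whole animals, and was called in none of the 3 (adjusted p = 0.272, 0.105 and 0.224).

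Regulators of intestinal and immune genes were split. Of 13 tested, 4 were called higher and 2 lower in P-bodies against oocytes, 7 lower in oocytes against whole animals, and 4 higher with 6 lower in P-bodies against whole animals. The medians were 0.34, -1.37 and -0.55 with TMM and 2.83, -0.67 and 2.64 with library totals. Of the 6 lower in P-bodies against whole animals, hlh-30 and cebp-1 turned positive with library totals (2.66 and 0.71), as did nsy-1 (0.29) among the 7 lower in oocytes. The 4 higher ones in both P-body comparisons were atf-7, daf-16, nsy-1 and pmk-1. All but daf-16, the FOXO factor of insulin signalling, belong to the p38 immune pathway. In daf-16 the level was 109.8 ± 8.27 CPM in P-bodies, 33.5 ± 2.27 CPM in oocytes and 40.5 ± 3.52 CPM in whole animals. The lower ones in P-bodies against oocytes were the bZIP genes zip-2 and cebp-1, with changes of 1.53 and 1.45 with library totals. The intestinal factor elt-2 had log2 changes of -0.34 ± 1.13 for P-bodies against oocytes (SE, adjusted p = 0.817), -3.77 ± 1.08 for oocytes against whole animals (adjusted p = 0.0354) and -4.11 ± 0.91 when P-bodies were set against whole animals (adjusted p = 0.00145). These changes rest on very few counts. Its level was 0.0149, 0.0668 and 0.0113 CPM in P-bodies, 0.0432, 0 and 0.0592 CPM in oocytes and 0.904, 0.556 and 0.242 CPM in whole animals. No oocyte library exceeded the level of 3 counts, 0.0592 to 0.149 CPM in that group. The listed regulator elt-7 was called in none of the 3 comparisons, with TMM changes of 0.97, -1.81 and -0.84.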

How the data were processed

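Counts per gene were deposited by the authors as a raw table named for HTSeq, with 1 column per library. Per the submitters' processing notes, reads were aligned with HISAT2 2.1.0 to WBcel235, and bcl2fastq, FastQC, StringTie, HTSeq and DESeq2 are named without versions. The strand setting of the counting is not given in the sources used here. A StringTie table, also deposited by the authors, gives TPM over all genes, ribosomal RNA included, per the file headers. Its FPKM and its coverage per base were deposited too and entered no test. Per the labels' protocols, RNA extraction used an FFPE kit, included DNase and undid the crosslinks of fixed fractions, and debris was not spun off from the sorted P-bodies, unlike the other groups. Libraries were paired-end, made from 10 ng of RNA with a stranded kit for small inputs.

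Of 46778 identifiers 46603 were in the Ensembl annotation, release 115, among them all 42 members. The symbol was the same in both for 40 members, and 9 had identical start and end. One further annotated cpr gene has another symbol in the deposited table and was left out by the rule.

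The filter of edgeR with its defaults, a minimum count of 10 and a minimum total of 15, left 10162 genes for testing. They were tested with the quasi-likelihood method of edgeR 4.0.16 in R 4.3.3, with TMM and robust estimation, all 9 libraries in 1 fit with 6 residual degrees of freedom and no covariate. P-values were adjusted by Benjamini-Hochberg over all tested genes, and genes under 0.05 were called. Summed shares were compared by two-sided exact permutation over libraries (SciPy 1.17.1), and scripts were tested on simulated counts. Values per library are given for up to 8 tested members a family, in order of mean CPM, and for members highest in P-bodies or oocytes, which added ilys-1 and lys-9. Members and gene lists were chosen with earlier results of these data known. Alternatives were library totals, protein-coding totals, DESeq2 1.42.0, no filter, at least 50 counts in 3 libraries, limma 3.58.1 on log2(TPM + 1) and log2(TPM + 0.1) for genes with a mean of at least 1 TPM in a group, only the groups compared, a replicate block and leaving out each library.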

Additional observations from a re-analysis of the deposited data

How the results depend on the processing

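The direction of P-bodies against oocytes depends on the scaling. Library totals and TPM include ribosomal RNA. The count called lower was 19 with TMM, 0 with library totals, 0 with log2(TPM + 1) and 0 with log2(TPM + 0.1). The count called higher was 9, 11 and 10 in the last 3 settings. Of all tested genes 28.8% were called lower with TMM and 79.6% higher with library totals, and the shares with TPM are not given here. The all-gene median log2 change was 2.44 with library totals, 1.87 with log2(TPM + 1) and 2.31 with log2(TPM + 0.1). The median of the members lay below it in each of these settings. The log2 ratio of the summed shares was -1.73 for protein-coding counts, 0.92 for all counts and 0.80 for summed TPM. With library totals the median member changed by 0.83, asp-2 by 0.22, asp-3 by 0.81, asp-4 by 0.83, asp-5 by 1.11, asp-6 by 1.15, asp-10 by 0.15, cpr-1 by 0.41, cpr-3 by 0.87, cpr-5 by 0.20, cpr-6 by 0.90, lys-1 by 1.01, lys-2 by 1.38, lys-4 by 0.46, lys-7 by 0.77, lys-8 by 1.18 and ilys-5 by 1.11. On log2(TPM + 1) these were 0.73 for the median, 1.17 for asp-1, 0.22 for asp-2, 0.83 for asp-3, 0.73 for asp-4, 0.88 for asp-5, 1.03 for asp-6, 0.0905 for asp-10, 0.38 for cpr-1, 0.30 for cpr-3, 0.0134 for cpr-5, 0.74 for cpr-6, 0.74 for lys-1, 0.78 for lys-2, 0.28 for lys-4, 0.94 for lys-7, 0.74 for lys-8 and 0.91 for ilys-5. On log2(TPM + 0.1) they were 0.87 for the median, 1.24 for asp-1, 0.40 for asp-2, 0.87 for asp-3, 0.84 for asp-4, 1.07 for asp-5, 1.11 for asp-6, 0.26 for asp-10, 0.47 for cpr-1, 0.68 for cpr-3, 0.0187 for cpr-4, 0.17 for cpr-5, 0.80 for cpr-6, 0.85 for lys-1, 1.08 for lys-2, 1.01 for lys-4, 1.21 for lys-7, 0.93 for lys-8 and 0.96 for ilys-5.

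For P-bodies against whole animals the direction held in all settings run, but the log2 ratio of summed shares was -5.05 for protein-coding counts, -1.92 for all counts and -2.16 for summed TPM. Leaving out 1 library gave 10 to 21 members called lower in P-bodies against oocytes, 17 to 20 in oocytes against animals and 23 in P-bodies against animals. The labels do not say whether replicate numbers pair the groups. Deviations of same-numbered libraries had correlations from -0.11 to 0.14, which cannot settle it, since differently numbered libraries were not compared. With a replicate block 16, 20 and 23 members were called lower in the 3 comparisons. With DESeq2 these counts were 20, 22 and 23, with protein-coding totals 18, 20 and 23, without a filter 13, 22 and 31 of 35 members tested, with the stricter filter 18, 19 and 20 of 20, and with only the compared groups 13 of 21, 16 of 22 and 23 of 23. Shares of all tested genes called in these alternatives, the replicate block and the fits that left out 1 library are not given here. In oocyte library 2, 3 counts correspond to 0.149 CPM, which limits what its values of 0 exclude.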
